A study of Mus musculus with 2 samples.

Results

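The miR-181 family was measured in exosomes of 2 murine pancreatic cell lines. Its members were the 4 miRNAs of the array named mmu-miR-181a-5p, mmu-miR-181b-5p, mmu-miR-181c-5p and mmu-miR-181d-5p (the prefix mmu, for mouse, is left out below), of 1881 mouse miRNAs in all. These members were chosen by name, with earlier results of these data known. KPC cells are a pancreatic cancer line established from tumours of mice whose alleles include Trp53 LSL-R172H/+ and Pdx1-Cre, in which a Cre recombinase under the promoter of Pdx1, a gene of the early pancreas, removes the stop cassette from the mutant allele. MPDC cells are a purchased murine pancreatic ductal epithelial line, and their exosomes were the control. KPC cells were kept with 20% FBS and MPDC cells with 10% FBS in a different medium. Before collection the medium was exchanged for one whose FBS had been cleared of exosomes by centrifugation. Exosomes were then isolated from the culture supernatants. The RNA of each preparation was hybridized to 1 array, and both arrays lay on the same slide. The question put to these arrays is which exosomal miRNAs differ between the cancer line and the ductal line. With 1 array per condition, no difference has a replicate check, no test across samples was possible, and no p-value is given. Cell line, medium, serum and preparation cannot be told apart.

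miRNAs of the miR-181 family are cut from hairpins that carry the active strand, as a rule, on the 5p arm. The family is best known from lymphocytes, where miR-181a sets the sensitivity of developing T cells to antigen, and it is also made in many other tissues. miR-181b is known in endothelium for restraining NF-κB signalling. miR-181c is known in heart muscle for its presence in mitochondria, and miR-181d is the least studied member.

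The mature sequences are shown because the family is defined by them. They are those of RefSeq (GRCm38.p6), and capitals mark the seed, bases 2 to 8, which pairs with target mRNAs.
miR-181a-5p: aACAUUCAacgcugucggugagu
miR-181b-5p: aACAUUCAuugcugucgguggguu
miR-181c-5p: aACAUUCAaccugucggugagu
miR-181d-5p: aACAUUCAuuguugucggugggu
All 4 members share this seed. Of 1679 mature miRNAs in the RefSeq table, 4 carry it, and 0 of these lie outside the family. The table holds 1608 of the 1881 miRNAs of the array. miR-181a-5p and miR-181c-5p differ by 1 edit (a base changed, added or lost), and miR-181b-5p and miR-181d-5p by 2. Between these pairs the members differ by 4 or 5 edits.

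The pairs by sequence are not the pairs by locus. In the files, on mm9, the longest probes of miR-181a-5p lie at chr1:139863054-139863067 and chr2:38708270-38708283, and those of miR-181b-5p at chr1:139863236-139863249 and chr2:38709374-38709387. Each of them is thus made from a hairpin on chromosome 1 and another on chromosome 2, and the probes cannot tell the copies apart. The probes of miR-181c-5p lie at chr8:86702792-86702809 and those of miR-181d-5p at chr8:86702628-86702643, where the positions given are 1 base shorter than the probes. In the RefSeq table Mir181a-1 and Mir181b-1 overlap no other gene, Mir181a-2 and Mir181b-2 lie within Nr6a1 and the noncoding Nr6a1os, and Mir181c and Mir181d overlap no other gene and have Mir23a and Mir27a as the next miRNA genes.

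Each member was read by 2 probes, and the probes show how closely the members had to be told apart. The longer probe of each member is given 5′ to 3′, and capitals mark bases that differ from the complement of the member closest to it in sequence, placed without gaps.
miR-181a-5p probe: actcaccgacagCG
miR-181b-5p probe: acccaccgacaGca
miR-181c-5p probe: actcaccgacagGTtGAaT
miR-181d-5p probe: acccaccgacaAcaatg
All 8 probes, of 13 to 19 bases, were complementary to their own miRNA. The 4 probes of miR-181c-5p and miR-181d-5p reached into the seed, and those of miR-181a-5p and miR-181b-5p lay wholly 3′ of it. Both probes of miR-181a-5p share a run of 12 bases with the complement of miR-181c-5p and have 1 or 2 mismatches to it. Both probes of miR-181b-5p have 1 mismatch to miR-181d-5p, as do both probes of miR-181d-5p to miR-181b-5p. Between miR-181a-5p and miR-181b-5p, each probe of 13 bases has 1 mismatch to the other member and each probe of 14 bases has 2. The arrays hold no measure of how much of a signal came from such a near match, and its part in the results was not tested.

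All 4 members were dimmer in KPC-exosomes before normalization. miR-181c-5p and miR-181d-5p, from chromosome 8, were dimmer by more than 10-fold, and miR-181a-5p and miR-181b-5p, from chromosomes 1 and 2, by less than 2-fold. The signal of a miRNA is the sum over its detected probes of the total signal that Feature Extraction gave, in arbitrary units after background subtraction, and detection of a probe required over 3 times its scanner error. The error given with each signal is that scanner error, which covers the measurement on 1 array and not the variation between preparations.

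In KPC-exosomes miR-181c-5p gave a signal of 30.1 ± 2.61, against 677 ± 50.9 in MPDC-exosomes. It was 22.5-fold dimmer in KPC-exosomes, a log2 difference (KPC-exosomes minus MPDC-exosomes) of -4.49 ± 0.17. The signal of miR-181d-5p was 73.5 ± 5.80 against 836 ± 67.0, 11.4-fold dimmer, with a log2 difference of -3.51 ± 0.16. These differences were -27.1 and -21.6 times their scanner errors. For miR-181b-5p the signals were 39.4 ± 3.13 and 75.3 ± 5.62, 1.91-fold dimmer, a log2 difference of -0.93 ± 0.16. The signal of miR-181a-5p was 9.89 ± 1.36 against 19.7 ± 2.07, 1.99-fold dimmer, a log2 difference of -0.99 ± 0.25. These differences were -5.94 and -3.98 times their scanner errors, and both members were dimmer in KPC-exosomes by a like amount.

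**Figure D1:**
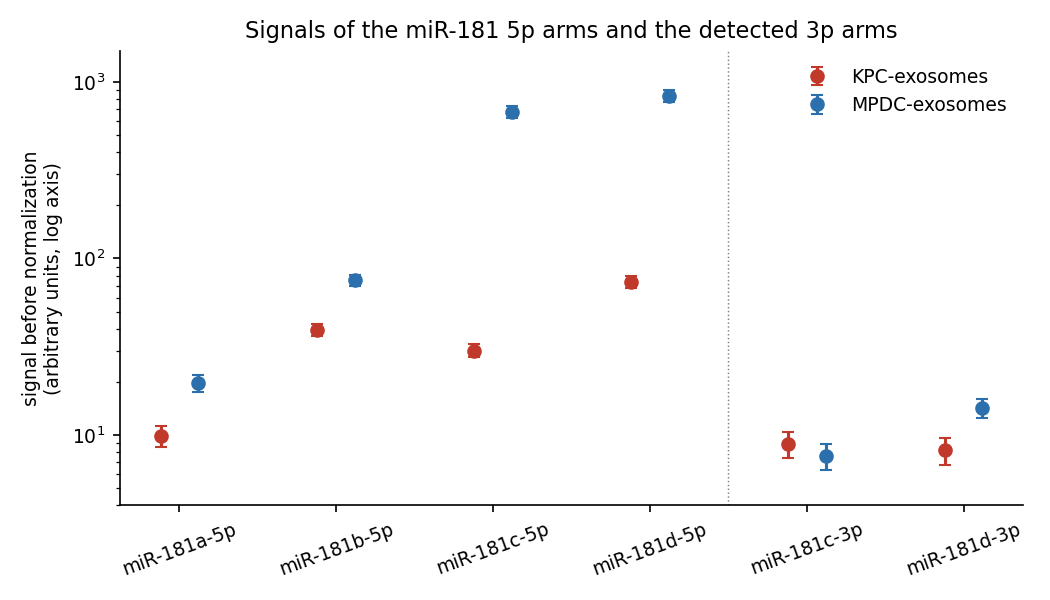
Signals of the 4 miR-181 5p arms and of the 3p arms detected on both arrays, before normalization, in KPC-exosomes (red) and MPDC-exosomes (blue), on a log axis in arbitrary units, with scanner errors as bars (1 array each). The points of miR-181c-5p (30.1 and 677) and miR-181d-5p (73.5 and 836) lie far apart, and those of the other arms lie close together.

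The median log2 difference of the 4 members was -2.25 before normalization, beside -1.37 for all 726 miRNAs detected on both arrays, of which 591 were dimmer in KPC-exosomes. Dimmer by more than 2 scanner errors were 4 of 4 members, and 73.4% of the 726 miRNAs, while 0 members and 14.7% were brighter by as much. At least 2-fold dimmer were 2 members, miR-181c-5p and miR-181d-5p, beside 68.0% of the 1077 miRNAs detected on at least 1 array, and at least 2-fold brighter were 0 members beside 11.1%. A dimmer signal in KPC-exosomes was therefore common on these arrays. The 1077 include miRNAs detected on 1 array only, whereas all 4 members were detected on both. Set against the median of the 726, miR-181a-5p and miR-181b-5p were higher by 0.38 and 0.44 on the log2 scale, while miR-181c-5p was lower, at -3.12, and miR-181d-5p at -2.14. Of the 726 differences, 46 lay below that of miR-181c-5p and 100 below that of miR-181d-5p, but 430 below that of miR-181a-5p and 446 below that of miR-181b-5p. The former pair was thus near the lower end of the array-wide distribution and the latter near its middle.

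**Figure D2:**
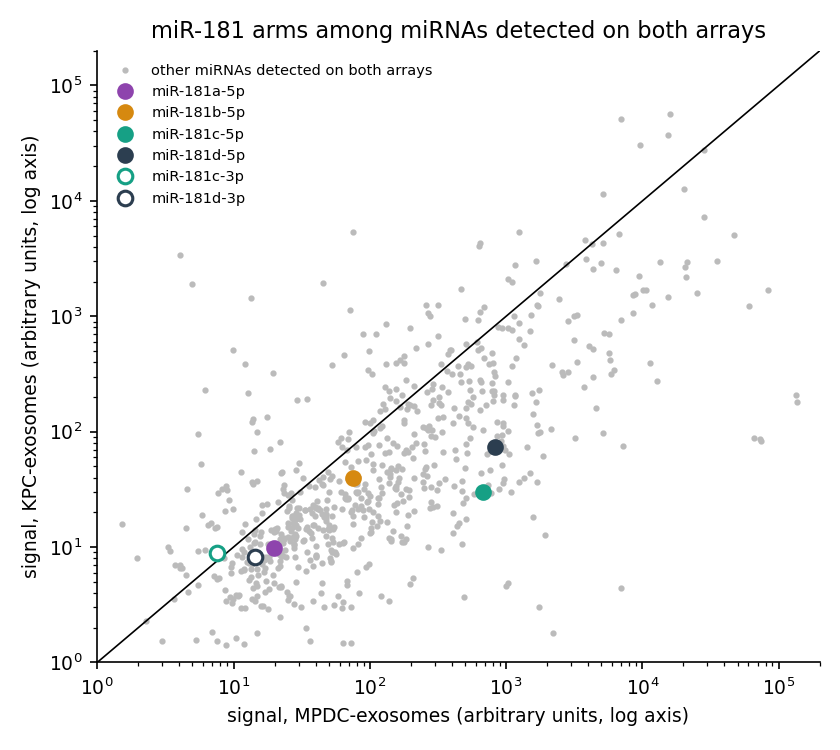
Signal in KPC-exosomes against signal in MPDC-exosomes before normalization, both on log axes in arbitrary units, for the 726 miRNAs detected on both arrays, with equal signals on the line. miR-181c-5p and miR-181d-5p lie in the lower part of the cloud, at 677 and 836 in MPDC-exosomes, with some miRNAs further below, and miR-181a-5p and miR-181b-5p lie within it, just under the line.

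Single probes set the same pairs apart, with both members from chromosome 8 below the other two. All 8 probes were dimmer in KPC-exosomes. The probe of 19 bases for miR-181c-5p had a signal of 20.0 ± 2.22 against 460 ± 46.1 and that of 18 bases 10.1 ± 1.38 against 217 ± 21.7, log2 differences of -4.52 and -4.42. For miR-181d-5p the probe of 17 bases gave 52.2 ± 5.30 against 639 ± 64.0 and that of 16 bases 21.3 ± 2.34 against 196 ± 19.7, differences of -3.62 and -3.20. The log2 differences of these 4 probes had scanner errors of 0.21 to 0.24. The probes of miR-181b-5p gave -0.85 and -0.99. For miR-181a-5p the probe of 14 bases was detected on both arrays, with 9.89 ± 1.36 against 14.0 ± 1.72 and a difference of -0.50. Its probe of 13 bases was detected in MPDC-exosomes only, with 2.53 ± 0.966 in KPC-exosomes, 2.62 times its error, against 5.75 ± 1.15 and a difference of -1.18 ± 0.62. By its detected probe alone (-0.50) miR-181a-5p lay above both probes of miR-181b-5p, while by the sums (-0.99 against -0.93) it lay just below. With that probe counted on both arrays the signals of miR-181a-5p were 12.4 and 19.7, a log2 difference of -0.67. Its difference before normalization (-0.99) thus holds a part that came from 1 probe passing the detection limit on 1 array only.

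Each probe was printed on 15 spots per array, and spots are repeats of 1 hybridization, not replicates. For 7 of the 8 probes the spots of the arrays did not overlap, with all spots of KPC-exosomes below all spots of MPDC-exosomes. The exception was the probe of 14 bases for miR-181a-5p, with processed signals from 25.9 to 42.2 (median 36.4) in KPC-exosomes and from 35.6 to 61.6 (median 49.9) in MPDC-exosomes. No such share was computed over the other probes of the arrays, so the count is not read as a trait of the family. Of the 726 miRNAs detected on both arrays, 591 were dimmer in KPC-exosomes. For the probe of 19 bases for miR-181c-5p the spots ran from 56.3 to 80.6 (median 72.2) and from 1574 to 1816 (median 1678). For that of 17 bases for miR-181d-5p they ran from 175 to 196 (median 180.6) and from 2161 to 2508 (median 2347). All spots of these 2 probes were well above background on both arrays, whereas none of the spots of the shorter miR-181a-5p probe was so in KPC-exosomes.

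**Figure D3:**
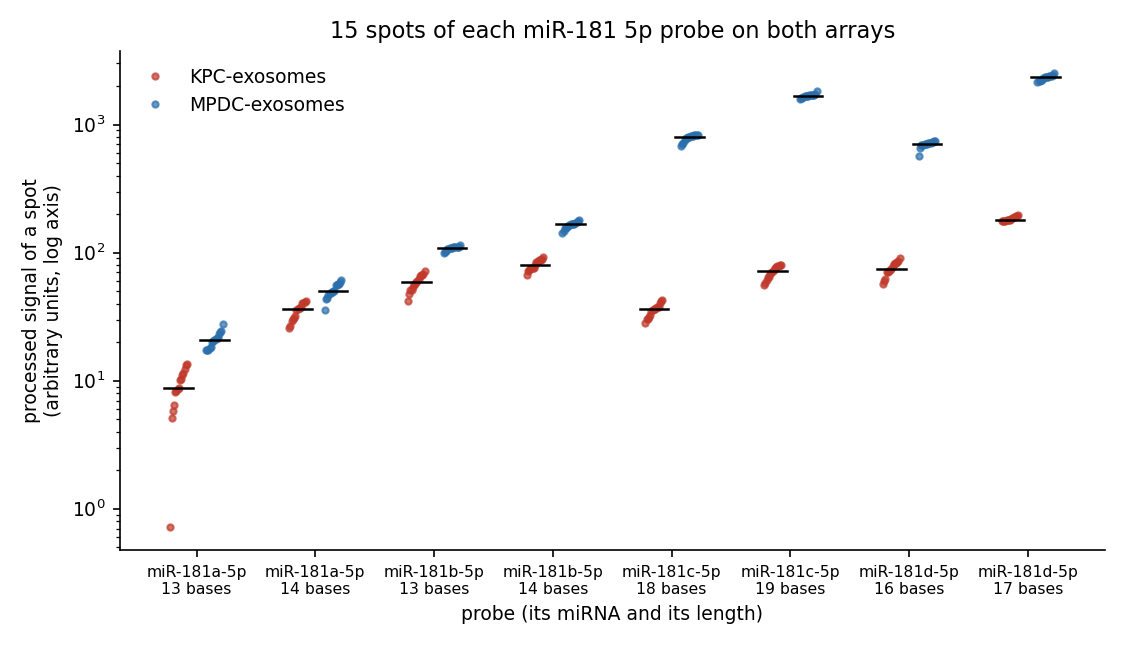
Processed signals of the 15 spots (points, sorted within a column) of each of the 8 miR-181 5p probes in KPC-exosomes (red) and MPDC-exosomes (blue), on a log axis in arbitrary units, with the median as a black line. Only for the probe of 14 bases for miR-181a-5p do the spots of the 2 arrays overlap.

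The authors' values are normalized between the arrays, and the sign of 2 members depends on that step. Quantile normalization of the scanner signals, which gives both arrays the same distribution, came within 1.11e-05 (log2) of the deposited values for all 1902 features, and it moved the median of the 726 miRNAs from -1.37 to 0.53. After it miR-181c-5p was 6.56-fold lower in KPC-exosomes (log2 difference -2.71) and miR-181d-5p 3.49-fold lower (-1.80). miR-181b-5p was 1.93-fold higher (0.95) and miR-181a-5p 1.87-fold higher (0.90), although both were lower without normalization (-0.93 and -0.99) and under spike-in scaling (-0.96 and -1.02). By the filter of the study, detection on at least 1 array and a difference of at least 2-fold, 2 of 4 members were called lower, beside 42.7% of the 1077 detected miRNAs. Called higher were 0 of 4, beside 31.5%. miR-181a-5p and miR-181b-5p fell just short of the 2-fold limit. The 1077 include miRNAs detected on 1 array only, whereas all 4 members were detected on both, so these shares come from an unlike set. With 4 members, no result is read from the count of 2 lower calls.

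miR-181c-5p and miR-181d-5p were lower in KPC-exosomes under all 13 alternatives to this setting, between -4.51 and -2.12 and between -3.53 and -1.49. Relative to the median of the 726 miRNAs of the same setting, miR-181c-5p lay between -3.53 and -2.27 and miR-181d-5p between -2.60 and -1.63. With the totals that Feature Extraction wrote left aside, miR-181b-5p stayed between 0.35 and 0.69 above that median and miR-181a-5p between 0.14 and 0.75, whichever sign its difference had.

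**Figure D4:**
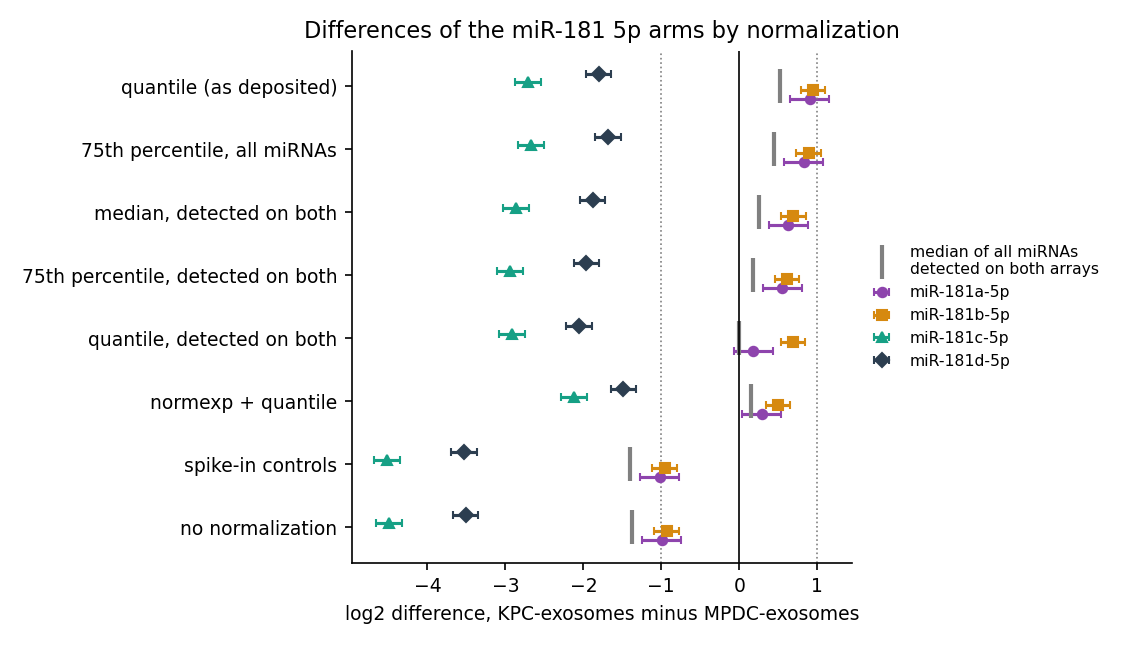
Log2 differences (KPC-exosomes minus MPDC-exosomes, horizontal axis) of the 4 miR-181 5p arms under 8 normalizations (rows), with scanner errors as bars, the median of the 726 miRNAs as grey ticks and 2-fold limits as dotted lines. miR-181c-5p and miR-181d-5p stay left of -1 in every row, while miR-181a-5p and miR-181b-5p are above 0 in the upper 6 rows and below 0 without normalization and with the spike-in controls.

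The contrast between the locus pairs was negative under all 13 alternatives. These pairs also differ in their probes, of 16 to 19 bases for miR-181c-5p and miR-181d-5p and of 13 or 14 for the others. In MPDC-exosomes they differ in signal too (677 and 836 against 19.7 and 75.3). Locus, probe and signal cannot be told apart here. The mean difference of miR-181c-5p and miR-181d-5p minus that of miR-181a-5p and miR-181b-5p was -3.19 ± 0.19 after quantile normalization. It was -3.03 with any single factor per array on the summed signals of detected probes, normalized or not, because such a factor cancels in it. The settings that share this value are therefore not separate checks. With processed signals it was -3.07. It was -2.20 with normexp background correction. With the totals per miRNA that Feature Extraction wrote it was -6.13, or -4.58 without normalization, where the total of miR-181a-5p in KPC-exosomes exceeds the sum of its detected probes. Which of miR-181a-5p and miR-181b-5p was lower depended on the setting. Before normalization their sums differed by less than the scanner error, but quantiles over miRNAs found on both arrays gave 0.18 against 0.69 and the brightest probe 1.29 against 0.92. Of the other pair, miR-181c-5p lay below miR-181d-5p (-4.49 ± 0.17 against -3.51 ± 0.16 before normalization).

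The opposite arms of the same hairpins were faint. Of the 6 3p arms, 4 (miR-181a-1-3p, miR-181a-2-3p, miR-181b-1-3p and miR-181b-2-3p) were detected on neither array. Their deposited values differ by 0.71 on the log2 scale through the floor alone, without a signal. miR-181c-3p and miR-181d-3p were detected on both arrays. The 5p and 3p arms of miR-181c and of miR-181d behaved differently, and only the hairpin sequence of miR-181d was at hand. It is shown with the 5p arm and then the 3p arm in capitals. The mature 3p arms of both follow, with bases 2 to 8 in capitals (RefSeq, GRCm38.p6, minus strand of chromosome 8).
Mir181d hairpin: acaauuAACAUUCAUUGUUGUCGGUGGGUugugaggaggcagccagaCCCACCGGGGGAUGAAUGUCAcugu
miR-181c-3p: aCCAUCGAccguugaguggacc
miR-181d-3p: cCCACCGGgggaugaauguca

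miR-181c-3p had a signal of 8.90 ± 1.46 against 7.60 ± 1.26 in MPDC-exosomes, a log2 difference of 0.23 ± 0.34 before normalization, which is within the scanner error. 1 of its 2 probes was not detected in MPDC-exosomes, and its probes disagreed, with log2 differences of 1.42 ± 0.94 (13 bases) and -0.77 ± 0.41 (14 bases). With both probes counted on both arrays its signals were 8.90 and 9.26, a difference of -0.06. The signal of miR-181d-3p was 8.21 ± 1.45 against 14.3 ± 1.78, a difference of -0.80 ± 0.31. The log2 difference of the 5p arm minus that of the 3p arm was -2.71 ± 0.35 for miR-181d, whose probes were all detected. For miR-181c it was -4.72 ± 0.37 from the detected probes, which are not the same on both arrays, and -4.43 with all probes counted, a sum chosen after the data were seen. Spot ranges overlapped between the arrays for all 4 probes of the 3p arms. For the probe of 16 bases for miR-181d-3p this overlap rested on 1 spot of KPC-exosomes, at 40.9. The next spot of KPC-exosomes was at 21.8 and the lowest of MPDC-exosomes at 26.5, and 1 spot of this probe in KPC-exosomes was flagged as an outlier.

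After quantile normalization miR-181c-3p was 18.4-fold and miR-181d-3p 12.6-fold higher in KPC-exosomes (4.20 and 3.65), so that both passed the filter as higher, beside the 31.5% given above. Before normalization neither differed by 2-fold. The normalization added 3.97 and 4.45 to them, but only 1.70 to 1.90 to the 5p arms. It sets features of equal rank against each other, and 782 features were detected on the array of KPC-exosomes. In MPDC-exosomes miR-181d-3p was at rank 792 and miR-181c-3p at rank 923, so that their signals were averaged with the floor of the other array. miR-181a-5p was at rank 714 and miR-181b-5p at rank 456, and the ranks of miR-181c-5p and miR-181d-5p were 172 and 151.

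**Figure D5:**
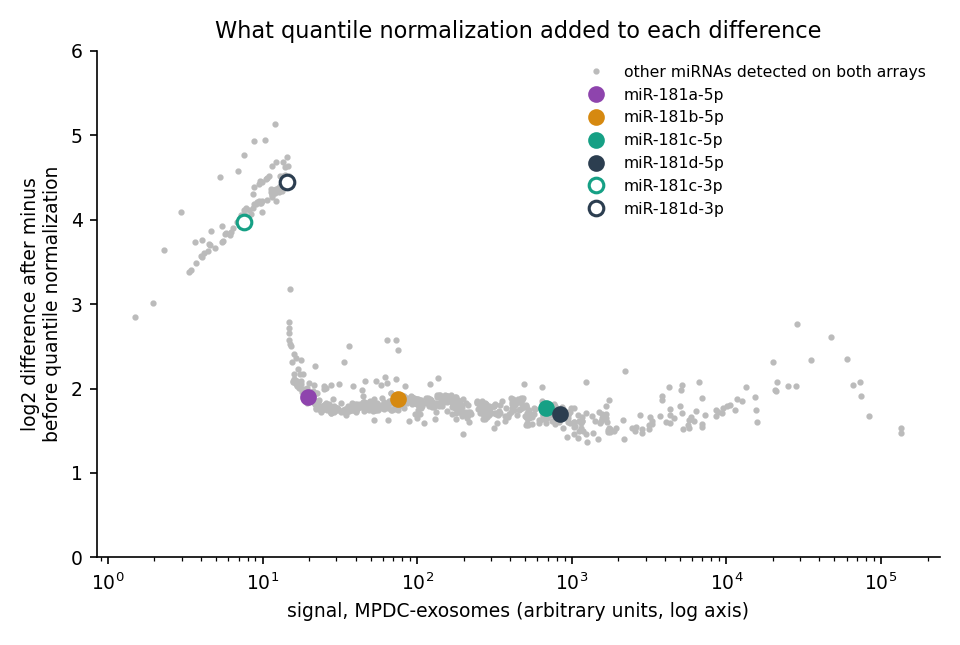
Amount that quantile normalization added to the log2 difference (vertical axis) against the signal in MPDC-exosomes before normalization (log axis, arbitrary units), for the 726 miRNAs detected on both arrays. miR-181c-3p and miR-181d-3p lie on the steep left part at 3.97 and 4.45, and the 4 5p arms on the flat part between 1.70 and 1.90, with miR-181a-5p next to the step.

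The next miRNA genes to Mir181c and Mir181d on chromosome 8 belong to the Mir23a cluster, whose miRNAs are abundant in many cell types. 6 of its arms were on the array, and 5 were detected on both arrays, with miR-27a-5p on neither. miR-23a-3p had a signal of 4333 ± 349 against 5112 ± 412 in MPDC-exosomes, a log2 difference of -0.24 ± 0.16 before normalization and 1.75 after it. miR-27a-3p (2571 ± 213 against 4323 ± 360) differed by -0.75 before and 1.01 after, and miR-24-3p (4582 ± 330 against 3809 ± 277), which also comes from another locus, by 0.27 and 2.18. The minor arms miR-23a-5p and miR-24-2-5p differed by -2.05 and -1.13 before normalization. Differences as low as those of miR-181c-5p (-4.49) and miR-181d-5p (-3.51) were not seen in these neighbours.

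The miRNAs outside the family closest to each member, by distance over the 2 normalized log2 signals, were miR-6352 and miR-6931-3p for miR-181a-5p (0.035 and 0.110), miR-7221-5p and miR-7022-3p for miR-181b-5p (0.105 and 0.132), miR-295-5p and miR-466i-3p for miR-181c-5p (0.029 and 0.170), and miR-17-5p and miR-1896 for miR-181d-5p (0.203 and 0.218). With 2 arrays such a likeness rests on 2 values and is a description only.

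Several values of the whole arrays touch these results. None of the 58594 spots of either array was saturated. 772 miRNAs (41.0%) were detected in KPC-exosomes and 1031 (54.8%) in MPDC-exosomes. The 4 spike-in controls, RNAs added to each sample, differed by -0.31 to 0.38 on the log2 scale with a mean of 0.03, far less than the median of the miRNAs. Of 6 miRNAs typical of epithelium (miR-200a-3p, miR-200b-3p, miR-200c-3p, miR-141-3p, miR-429-3p and miR-205-5p), 5 were detected in KPC-exosomes and 6 in MPDC-exosomes, with summed signals of 98.8 and 1763. Of the latter sum miR-200c-3p gave 991. All 5 detected on both arrays were dimmer in KPC-exosomes, with log2 differences before normalization from -7.76 to -2.28. Of all 726 miRNAs detected on both arrays, 591 were dimmer too, with a median of -1.37. After quantile normalization miR-200a-3p, miR-200b-3p and miR-200c-3p were still at least 2-fold lower in KPC-exosomes. miR-141-3p and miR-429-3p were then lower by less than 2-fold. Of 5 typical of pancreas (miR-216a, 216b, 217 and 148a, and miR-375-3p), each array detected 1, miR-217-5p (60.9) in KPC-exosomes and miR-148a-3p (1190) in MPDC-exosomes. Blood cells, in which miR-181 is well known, were looked at through 5 of their miRNAs (miR-142a-3p, miR-223-3p, miR-150-5p, miR-451a and miR-144-3p), of which 3 and 4 were detected with summed signals of 236 and 426, and miR-144-3p on neither array. They did not move together: miR-142a-3p was brighter in KPC-exosomes (188 against 29.1, a log2 difference of 2.69), miR-223-3p (-2.52) and miR-451a (-2.66) were dimmer, and miR-150-5p was detected in MPDC-exosomes only (109). The part of other cells or of serum in the miR-181 differences was not tested.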

How the data were processed

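Exosomal RNA of KPC cells and of MPDC cells was measured on 1 Agilent mouse miRNA array each (1 colour, Cy3), and samples were grouped by their labels. The authors deposited the scanner output, whose intensities are linear and background-subtracted within each array. The file headers name Feature Extraction 10.7.1.1 and the submitters' processing notes 9.1. Log2 values were deposited by the authors as well, normalized in GeneSpring by a method the paper does not name. Their scale, direction and centring were settled by the match to the quantile-normalized scanner signals.

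Total signals of probes over 3 errors were summed per miRNA, undetected miRNAs were set to 0.1, and log2 values of 1881 miRNAs and 21 control features were quantile normalized, with ties averaged. Errors of differences combine the scanner errors of both signals before normalization. The quantile step was also run on simulated arrays with the same miRNAs detected on both and as many raised as lowered. The real arrays differ in detection, so that run cannot show how the step acts on them. Alternatives covered other scalings, normexp (offset 50), other probe summaries, other limits for calls and the deposited values. The Feature Extraction total without normalization was added after the data were seen. Depth is not defined for arrays, and their number limits the precision.

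Named were the 4 members, the 6 3p arms, other miRNAs with the seed (none found), the Mir23a cluster and the 2 miRNAs nearest to each member. Marker miRNAs were added later. Members and lists were chosen with earlier results of these data known. Python 3.11.15, numpy 2.4.6, pandas 2.3.3, R 4.3.3, limma 3.58.1 and matplotlib 3.10.9 were used. RT-qPCR and immunoblots were not analysed here. Positions are those of the files, on mm9. A further allele of the KPC line is not reported here.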

Additional observations from a re-analysis of the deposited data

How the results depend on the processing

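miR-181c-5p and miR-181d-5p kept their direction under all 13 alternatives, and 0 called differences reversed. The 13 are not independent, and 1 of them is the deposited values, which equal the main setting within 1.11e-05 (log2). miR-181a-5p and miR-181b-5p, which were not called, fell below 0 under 2 and 3 of the alternatives. The log2 differences of miR-181a-5p, miR-181b-5p, miR-181c-5p and miR-181d-5p, in this order, were -0.99, -0.93, -4.49 and -3.51 without normalization, -1.02, -0.96, -4.51 and -3.53 with the spike-in controls, 0.29, 0.50, -2.12 and -1.49 with normexp, 0.18, 0.69, -2.92 and -2.05 with quantiles of doubly detected miRNAs, and 0.60, 0.56, -2.96 and -2.03 with processed signals. Here doubly detected miRNAs are those found on both arrays. Their 75th percentile as the scaling factor gave 0.55, 0.61 and -2.94 for the first 3, and their median 0.63 and 0.69 for the first 2. With the brightest probe miR-181a-5p was at 1.29. The contrast of the locus pairs moved to -2.20 with normexp, -2.92 with quantiles of doubly detected miRNAs and -3.42 with the brightest probe. The Feature Extraction total put miR-181a-5p at 6.78 and the contrast at -6.13, and the same total without normalization, an alternative chosen after seeing the data, gave 2.10, -0.93, -4.49 and -3.51 for the members and -4.58 for the contrast. Members at least 2-fold higher numbered 1 with the brightest probe, with all probes summed and with either form of that total. After quantile normalization 2 members, miR-181a-5p and miR-181b-5p, were higher by more than 2 scanner errors, although both were dimmer by as much before it. In the same setting 1 member, miR-181c-5p, was at least 4-fold lower. Shares over all miRNAs were not computed for these counts, and no result is read from them. The other values moved by less than the scanner error, or the counts by no more than 1.5 times. Apart from the total, whose excess is given below, the cause of these shifts was not tested. miR-181a-5p and the detected 3p arms had signals under 20 on both arrays. For miR-181a-5p and miR-181c-3p, 1 of 2 probes was detected on 1 array only. The part of such faint signals in the shifts was not tested. No paired analysis was possible because each group holds 1 array.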

Other observations

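The scanner files also hold a total per miRNA written by Feature Extraction, and for 1 member it did not equal the sum of its detected probes. For miR-181a-5p in KPC-exosomes this total was 84.7, whereas its detected probe gave 9.89. The excess of 74.8 equalled the signal of miR-17-5p on the same array (74.8) within a relative tolerance of 0.0001. For miR-181c-3p in MPDC-exosomes the total was 82.9 and the detected probe gave 7.60, and the excess of 75.3 equalled the signal of miR-181b-5p there. The totals of the other members and 3p arms lay within 1% of their sums on both arrays. Over all miRNAs the total was off by more than 1% for 143 in KPC-exosomes and 182 in MPDC-exosomes. Read from these totals, the log2 difference of miR-181a-5p would be 2.10 before normalization, against -0.99 from its probes.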
